A study of Mus musculus with 48 samples.

Results

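Translation efficiency (TE) was compared between midday and midnight in mouse kidney. TE is the number of ribosome footprints on a coding sequence relative to the amount of its mRNA, and here it was the ratio of the RPF-seq value to the RNA-seq value of a gene within 1 pool of kidney lysate. The midday group held the 6 pools taken at Zeitgeber times ZT04, ZT06 and ZT08, which lie in the rest phase of mice (ZT00 is lights-on), and the midnight group the 6 pools of ZT16, ZT18 and ZT20 in the active phase (ZT12 is lights-off). These pools gave 24 of the 48 libraries of the series, and 11863 of the 12423 genes listed in both assays reached a median of 0.5 RPKM in each and were compared. The mice were male C57BL/6JRj animals aged 11 to 12 weeks, untreated, fed ad libitum and kept under 12 h of light and 12 h of darkness, and each pool combined kidney lysate of 2 of them. The 12 pools therefore differ in time of day alone by label, and each window mixes 3 timepoints with 2 replicate pools each.

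Ribosome profiling (RPF-seq) reads the stretches of mRNA that translating ribosomes protect from digestion, and RNA-seq of the same lysate gives transcript abundance. The best known route by which cells change the TE of many mRNAs together runs through the kinase complex mTORC1. It controls mRNAs that begin with a 5′ terminal oligopyrimidine (TOP) tract, a C followed by an unbroken run of pyrimidines, and these encode ribosomal proteins, elongation factors and poly(A)-binding proteins. Other mRNAs carry their own controls, among them the iron-responsive elements of ferritin mRNAs and the upstream open reading frames of stress response mRNAs.

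Depth, relative to the median library of the assay, ran from 0.907 to 1.61 at midday (median 1.06) and from 0.598 to 1.17 at midnight (median 0.716) in RNA-seq. It ran from 0.816 to 1.39 (median 0.985) and from 0.701 to 1.26 (median 0.910) in RPF-seq. The RPF-seq library of ZT04 replicate 2 stood apart, with 59 of the genes compared at 0. It is named below for some of the genes in which it held the highest or lowest value. Kidney identity was clear from RNA: all 6 markers of the proximal tubule, all 3 of the thick ascending limb and all 5 of the podocyte were present, whereas none of the 4 adrenal and none of the 3 skeletal muscle markers was listed. The 3 adipose markers summed to 9.92 to 44.9 RPKM in the midday pools and to 2.17 to 7.75 RPKM in the midnight pools, so these markers moved with the groups (2 of the 3 were among the genes compared and 0 were called for TE). The 3 markers of the thick ascending limb also separated, at 2727 to 3021 RPKM at midday and 3183 to 3707 RPKM at midnight, while those of the proximal tubule (median 44244 and 62470 RPKM) and podocyte (median 101.8 and 81.1 RPKM) shifted with ranges that overlapped. The part of these shifts in the TE differences was not tested. In whole kidney the TE of a gene is an average over every cell type that expresses it, and a shift in the shares of cells cannot be told apart from a change within them.

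No shift of TE as a whole was detected. The median log2 TE of a pool lay between -0.105 and -0.0510 at midday and between -0.0921 and -0.0580 at midnight, a difference in means of 0.00499 (exact permutation test over the 924 splits, two-sided, p = 0.626). The authors' normalisation of each library on its upper quantiles would hide a change common to all mRNAs. The interquartile range of log2 TE over genes was 1.16 ± 0.0445 at midday and 1.18 ± 0.0371 at midnight (SD, n = 6 pools each, exact permutation test, two-sided, p = 0.474), and the widest pool was ZT04 replicate 2 at 1.25.

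Single genes did differ. At a false discovery rate (FDR) under 0.05 in limma, 1218 genes were called, 10.3% of those compared: 589 had a higher TE at midday (4.97%) and 629 a higher TE at midnight (5.30%). The differences were small, with a median size of 0.41 on the log2 scale (1.33-fold). Of the called genes, 193 passed 1.5-fold and 16 passed 2-fold. In 697 genes (5.88%) the 6 midday pools lay all above or all below the 6 midnight pools, and 625 of these were among the called. The counts depended on how the pools were modelled. When the 2 pools of each timepoint were averaged, so that 3 timepoints stood against 3, limma called 0 genes (2436 at an unadjusted p under 0.05), and when the relative depths of both libraries entered as covariates it called 2 (2003 at an unadjusted p under 0.05). Averaging the 2 pools of each timepoint leaves every difference as it was, so no sign could change there. With the depth covariates every one of the 1218 differences kept its sign, at a median size of 0.36. RNA-seq depth was higher at midday, and its part in these calls was not tested beyond that fit. Without 1 of the pools ZT06 replicate 1, ZT06 replicate 2, ZT08 replicate 1, ZT08 replicate 2, ZT20 replicate 1 or ZT20 replicate 2 the number of called genes was 660, 723, 531, 583, 610 and 555, respectively. With both pools of ZT06, ZT08 or ZT20 left out, it was 43, 34 and 128, and 773 without both pools of ZT04. With only the replicate 2 pools or only the replicate 1 pools, 3 against 3, it was 0 (1683 and 2087 at an unadjusted p under 0.05).

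The called genes were sorted by the base composition of their coding sequences. Genes with a higher TE at midday had a median coding GC content of 44.8%, those with a higher TE at midnight 57.5% and those not called 52.8%. In the tenth of genes with the lowest coding GC (up to 44.4%) 265 genes were higher at midday and 3 higher at midnight, and in the tenth with the highest (from 60.2%) 5 were higher at midday and 161 at midnight. Across the 11784 genes with an annotated coding sequence, the TE difference and coding GC had a Spearman correlation of -0.52, a description over genes that share the same 24 libraries. The coding length (-0.061), the 5′ UTR length (-0.0056) and the 3′ UTR length (0.0056) had values near 0, and that of the 5′ UTR GC content was -0.102 (11309 genes). The sequences at the start of the coding regions of 5 leading genes are given below, on GRCm38 with GENCODE vM21 transcripts. Each codon that ends in G or C is marked by a capital at that base. Of these genes Tpt1 went against the sorting, with a coding GC of 46.1%, below the median of the genes not called. Over the whole coding sequence G or C filled the third codon position in 36.8% of codons in Triqk and 20.6% in mt-Atp8, both higher at midday, and in 86.8% in Rpl36, 73.5% in Card10 and 56.1% in Tpt1, all higher at midnight.
Triqk, chr4:12962963-12962989, plus strand: atGggtagaaaagaCtcttcCaataca
mt-Atp8, chrM:7766-7792, plus strand: atGccacaactagatacatcaacatga
Rpl36, chr17:56613588-56613614, plus strand: atGgctctGcgCtaCccCatGgcCgtG
Card10, chr15:78802958-78802984, minus strand: atGttGggtggCccGggaggCcgCcgG
Tpt1, chr14:75845429-75845455, plus strand: atGatCatCtaCcgGgaCctCatCagC

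**Figure D1:**
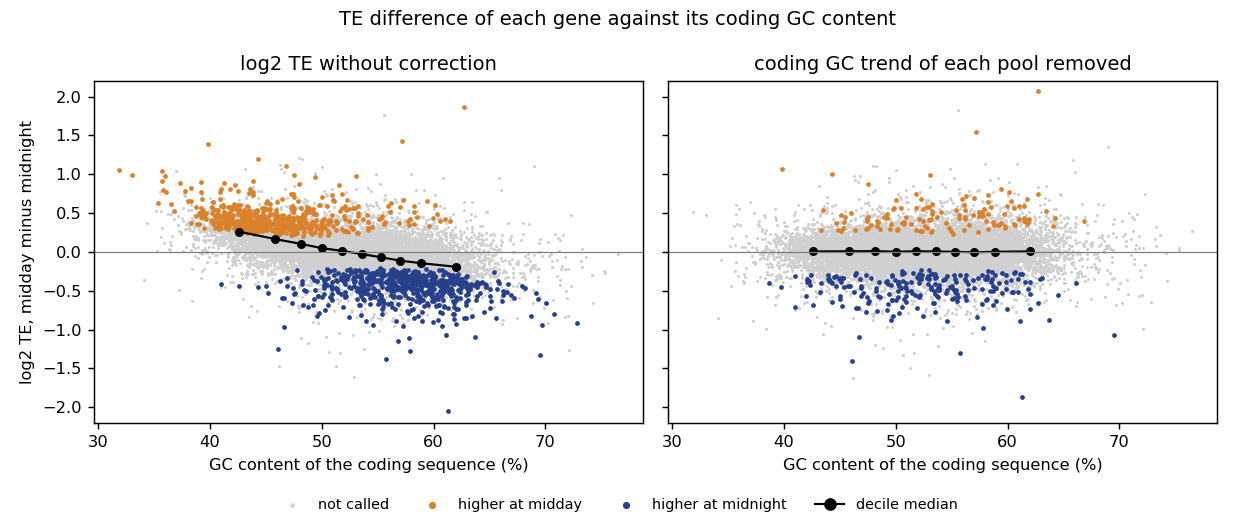
Each point is 1 gene, plotted by its coding GC content in percent (x axis) and its log2 TE at midday minus midnight (y axis), without correction on the left and with each pool's trend along coding GC removed on the right; black circles join the medians of 10 equal groups of genes. On the left the medians fall from 0.26 at the lowest GC to -0.19 at the highest and the calls of both directions sit at opposite ends, and on the right the medians lie within 0.011 of 0.

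The same dependence was measured pool by pool as the slope of log2 TE on coding GC, per 10 percentage points and relative to each gene's mean over the 24 pools. At midday the slopes were -0.210 at the lowest, -0.0839 at the median and 0.00200 at the highest, and at midnight 0.0197, 0.130 and 0.280. The groups did not overlap (difference in means -0.214, exact permutation test, two-sided, p = 0.00216, the smallest that 924 splits can give). The slope was chosen after the calls in these same pools had been seen to sort by coding GC, so this p-value is not independent evidence. Replicate pools of 1 timepoint outside the windows differed by as much, since the slope was -0.193 in ZT12 replicate 1 and 0.159 in ZT12 replicate 2. Between the pools flanking midday (ZT02 and ZT10) and midnight (ZT14 and ZT22) the difference in means was 0.0564, of the opposite sign. The flanking slopes overlapped (exact permutation test over 70 splits, two-sided, p = 0.657). Among the midday RNA-seq libraries the slope was -0.152 in ZT04 replicate 2 and ran from 0.151 to 0.266 in the others. In the midnight RNA-seq libraries it ran from -0.205 to -0.0286. Among the midday RPF-seq libraries it was -0.150 in ZT04 replicate 2 and ran from 0.0435 to 0.148 in the others. In the midnight RPF-seq libraries it ran from -0.0379 to 0.137. Whether the slope comes from the libraries or from translation was not tested.

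**Figure D2:**
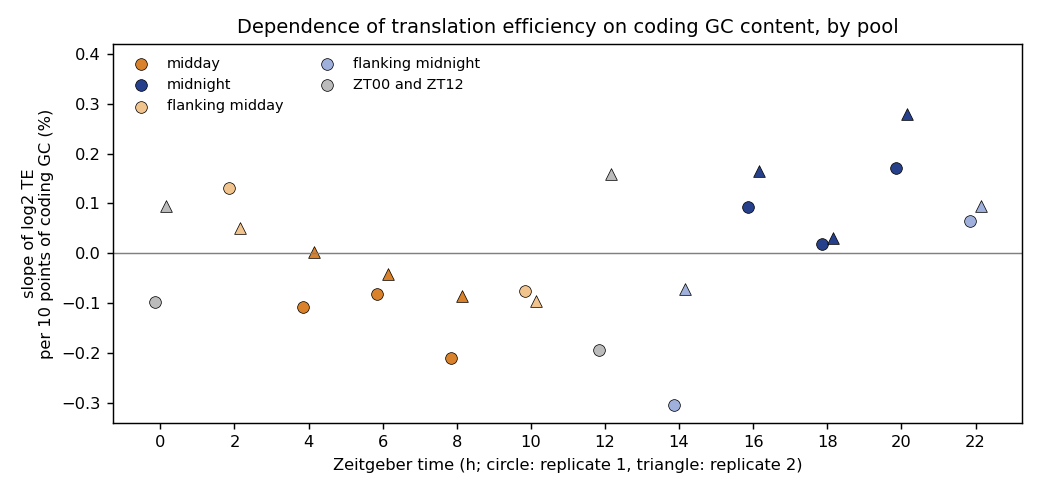
The slope of log2 TE per 10 percentage points of coding GC (y axis) is plotted against Zeitgeber time in hours (x axis) for all 24 pools, with circles for replicate 1 and triangles for replicate 2. The 6 midday pools sit at or below 0.00200 and the 6 midnight pools at or above 0.0197, while the 2 pools of ZT12 lie at -0.193 and 0.159.

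For this reason the counts and most genes below are also given from a second fit, in which each pool's trend along coding GC had been removed (chosen after seeing the data). That fit called 345 of 11784 genes, 2.93%, of which 126 were higher at midday (1.07%) and 219 higher at midnight (1.86%). Both fits called 270 genes in the same direction, 89 higher at midday and 181 at midnight, which was 22.2% of the first set and 78.3% of the second. The smaller set rested on the same pools: without ZT06 replicate 1 it held 146 genes, without ZT06 replicate 2 137, without ZT08 replicate 1 181, without ZT08 replicate 2 161, without ZT20 replicate 1 182 and without ZT20 replicate 2 151.

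Among genes with a higher TE at midnight, the 6 with the largest differences included a ribosomal protein, a growth-associated factor and a scaffold of NF-kappaB signalling. Tpt1 encodes the translationally controlled tumour protein and has a well known TOP mRNA. Its TE was 0.265 at the lowest, 0.328 at the median and 0.407 at the highest of the midday pools and 0.621, 0.767 and 0.895 at midnight. The groups were far from overlapping, with a log2 difference of -1.25 ± 0.118 (SE; adjusted p = 0.000638) and -1.40 once the GC trend was removed (adjusted p = 0.000533). Tpt1 stayed called without any 1 of the 12 pools in both fits, and it was 1 of the 2 genes still called with depth as covariates (adjusted p = 0.0293).

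Card10, which links receptors to NF-kappaB, had TEs of 0.655, 0.772 and 0.970 at midday and of 1.25, 1.65 and 2.05 at midnight. Every midnight pool was above every midday pool, and the difference of -1.09 ± 0.126 (adjusted p = 0.00216) was -0.88 with the GC trend removed (adjusted p = 0.00527). Rpl36, a protein of the large ribosomal subunit, had the largest difference of all genes named here, -2.05 ± 0.410 (adjusted p = 0.0139; -1.87 and 0.0334 with the GC trend removed), with TEs of 0.0162, 0.0613 and 0.0997 at midday and 0.113, 0.204 and 0.466 at midnight. Its pools did not overlap, but its lowest midday TE came from ZT04 replicate 2. Its difference in the flanking timepoints (ZT02 and ZT10 against ZT14 and ZT22) was 0.036, and reads of ribosomal protein genes can be shared with their many processed pseudogenes.

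Cyb561d1, a cytochrome b561 family protein, varied from 1.38 to 4.52 within midnight against 1.01 to 1.33 at midday. Its difference of -1.15 (adjusted p = 0.0227) was -1.04 with the GC trend removed and no longer called (adjusted p = 0.0558). Hspb6, a small heat shock protein, had TEs of 0.503, 0.711 and 1.05 at midday and 1.04, 1.52 and 2.17 at midnight, groups that touched at their edges (difference -1.08, adjusted p = 0.0147; -0.90 and 0.0439 with the GC trend removed). The predicted gene Gm16505 differed by -0.996 (adjusted p = 0.0249) with overlapping pools of 0.255 to 0.650 and 0.550 to 1.21, and had no coding annotation for the GC fit. In the flanking timepoints Gm16505 was at 0.87 and Hspb6 at 0.14, opposite in sign to the windows, and Cyb561d1 at -0.54. None of these was called there.

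The other 9 leading genes in this direction were Dynll2, Eef2, B9d2, Nr2c2ap, H2afx, Nccrp1, Tmem200b, Hsd11b2 and Gar1. Of all 15, 9 stayed called with the GC trend removed, and 6 of these (Tpt1, Card10, Dynll2, Eef2, Nr2c2ap and Hsd11b2) did so without any 1 of the 12 pools. Dynll2, a light chain of the dynein motor, had a median TE of 1.90 at midday and 4.49 at midnight, although its highest midday pool (3.36) exceeded its lowest midnight pool (2.85). Nr2c2ap, a partner of the nuclear receptor TR4, went from a median of 2.22 to 4.16 without overlap.

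In the other direction the 6 leading genes were the transmembrane protein genes Triqk and Prrg1 and 4 mitochondrially encoded genes. Triqk had TEs of 0.988, 1.21 and 2.31 at midday and of 0.318, 0.574 and 0.630 at midnight. All its midday pools were above its midnight pools, with a difference of 1.39 ± 0.212 (adjusted p = 0.00653) and of 1.07 with the GC trend removed (adjusted p = 0.0271). Prrg1, whose product has a Gla domain, had TEs of 0.899, 1.72 and 2.42 at midday (the highest in ZT04 replicate 2) and 0.515, 0.702 and 0.974 at midnight. Only its lowest midday pool, ZT08 replicate 2, fell within the midnight range (difference 1.2, adjusted p = 0.0110; 1.00 and 0.0368 with the GC trend removed). The other 9 leading genes were 1810022K09Rik, Defb1 (a beta-defensin of the renal epithelium), Il18 (an inflammatory cytokine), Itgb3bp, Serf1, Inip, Krcc1, Tyw5 and Adgrg4. Their differences lay between 0.78 and 0.92, and none of them stayed called with the GC trend removed. Of the 15 genes higher at midday, 7 stayed called without any 1 of the 12 pools before the GC trend was removed. With it removed 0 did so, Triqk being called in 10 and Prrg1 in 3 of the 12 fits that left out a pool. In the flanking timepoints Triqk was at 0.25 and Prrg1 at 0.53, and neither was called there. The median coding GC of the 15 genes higher at midday was 39.8%, and that of the 15 higher at midnight, over those annotated, 60.4%.

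**Figure D3:**
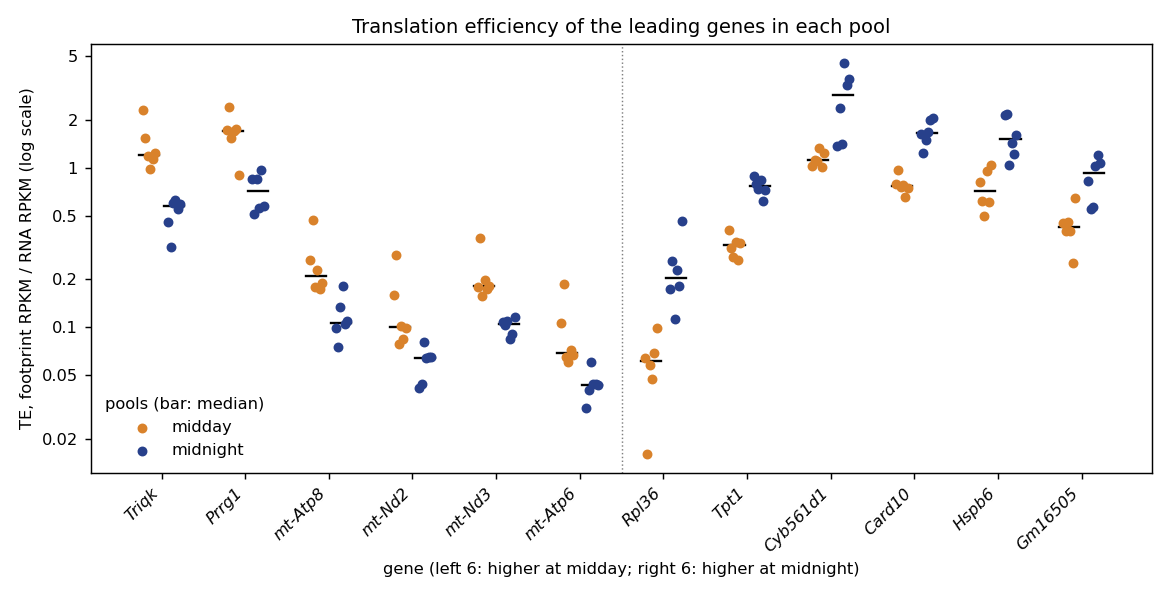
TE, the ratio of footprint RPKM to RNA RPKM, on a log scale (y axis) in each of the 6 midday and 6 midnight pools for the 6 leading genes of each direction (x axis); bars mark medians. Tpt1 and Card10 separate without overlap, whereas the highest midday TE of mt-Atp8, mt-Nd2 and mt-Atp6 (0.473, 0.286 and 0.188) comes from ZT04 replicate 2 in each.

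Among mRNAs of the translation machinery the calls went mostly to midnight. Of the 79 cytosolic ribosomal protein genes, 16 were called and all 16 were higher at midnight, beside a background of 5.30% in that direction. The list had a median difference of -0.30 against 0.0059 for all genes compared, and 74 of its members were negative. With the GC trend removed 6 were called, again higher at midnight (background 1.86%), and the median was -0.31. Of these 6, 5 were also among the 16 (Rpl36, Rps12, Rps18, Rpl34 and Rpl12) and the sixth was Rpl5. The called members included Rpl36, Rpl8, Rps18, Rpsa, Rpl10a, Rpl12, Rps21, Rps19, Rpl27a, Rps10, Rps12, Rpl34, Rpl7a, Rps15 and Rplp0, with differences from -0.36 to -2.05. Rpl34, of the large subunit, had a TE of 0.735, 0.767 and 0.933 at midday and 0.986, 1.16 and 1.35 at midnight. No midday pool of Rpl34 reached a midnight pool, and its difference of -0.52 ± 0.0943 (adjusted p = 0.00990) was -0.53 with the GC trend removed (adjusted p = 0.0137) and stayed called without any 1 pool in both fits. Rplp2 had the second largest difference of the list, -0.89, but its midday pools (0.18 to 0.69, the lowest in ZT04 replicate 2) overlapped its midnight pools (0.34 to 1.38) and it was not called.

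The list of 57 translation factor genes also held Tpt1, described above as a growth-associated factor. Of the 57, 13 were called higher at midnight, Tpt1 among them, and 3 higher at midday, beside 5.30% and 4.97% of all genes. Once the GC trend was removed, the numbers were 10 and 0 (background 1.86% and 1.07%), the 10 being Tpt1, Eef2, Eef1a1, Eef1b2, Pabpc1, Pabpc4, Eif1, Eif3c, Eif4b and Eif4a2. The median of the list was -0.037, and -0.10 with the GC trend removed. Eef2, which moves the ribosome along the mRNA, had TEs of 0.263, 0.391 and 0.438 at midday and 0.601, 0.701 and 0.803 at midnight, a difference of -0.96 ± 0.138 without overlap (adjusted p = 0.00653; -0.84 and 0.0133 with the GC trend removed). Eef1a1, which brings charged tRNA to the ribosome, had TEs of 0.183, 0.242 and 0.333 at midday and 0.366, 0.399 and 0.554 at midnight, again without overlap (difference -0.78, adjusted p = 0.0147; -0.83 and 0.0209).

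Its partners Eef1b2 (-0.55) and Eef1g (-0.46) were also called, Eef1g only before the GC trend was removed. The cytoplasmic poly(A)-binding protein genes Pabpc1 and Pabpc4, whose products hold the mRNA tail, were higher at midnight. Pabpc1 had a median TE of 0.353 at midday and 0.619 at midnight, its highest midday pool (0.462) lying just above its lowest midnight pool (0.461). Pabpc4 went from a median of 0.415 to 0.645 without overlap. Their differences were -0.68 and -0.59, and both stayed called with the GC trend removed and without any 1 pool.

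Initiation factors were among the calls too. Eif1, which guards start codon choice, had a median TE of 1.97 at midday and 2.57 at midnight with no overlap (difference -0.43, adjusted p = 0.0179; -0.61 and 0.0205 with the GC trend removed). Eif4b and the subunits Eif3b, Eif3c, Eif3f and Eif3h of the eIF3 complex were also higher at midnight, with differences from -0.22 to -0.55. The 3 members higher at midday were Mcts1 (0.77), which acts in reinitiation, and Paip1 (0.40) and Paip2 (0.44), which bind the poly(A)-binding protein. None of the 3 was called with the GC trend removed, and their coding GC contents were 36.1%, 42% and 41.3% against a median of 49.2% over the list.

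The 4 genes shown here were picked by hand, and for each the matching transcript with the longest run was taken. Eef1b2 was called in 2 of the 12 fits that left out a pool, and in 7 with the GC trend removed. Annotated transcripts of Tpt1, Eef1b2, Pabpc1 and Rpl34, all called in both fits, open with a TOP-like tract, with the opening run of C and T in capitals (GENCODE vM21 on GRCm38, 20 bases from each start site).
Tpt1, chr14:75845331-75845350, plus strand: CTTTTCCgcccgctcccccc
Eef1b2, chr1:63177129-63177148, plus strand: CCTTTTTTTCCCTCagcgct
Pabpc1, chr15:36608954-36608973, minus strand: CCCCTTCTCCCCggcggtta
Rpl34, chr3:130730328-130730347, minus strand: CTTTTCCTCTTCCggggacg
An annotated transcript opening with C and at least 4 further pyrimidines (read on the transcript strand only) was found for 10.8% of all genes compared, 43.0% of the ribosomal protein genes and 31.6% of the translation factors. The annotated starts are often some bases off, so the absence of a match says only that these letters do not open an annotated transcript. Over all genes the median TE difference was -0.0012 with such a start and 0.0068 without. Within the ribosomal protein genes it was -0.31 for the 34 with a match and -0.30 for the 45 without. Within the translation factors it was -0.13 for the 18 with a match and -0.021 for the 39 without.

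**Figure D4:**
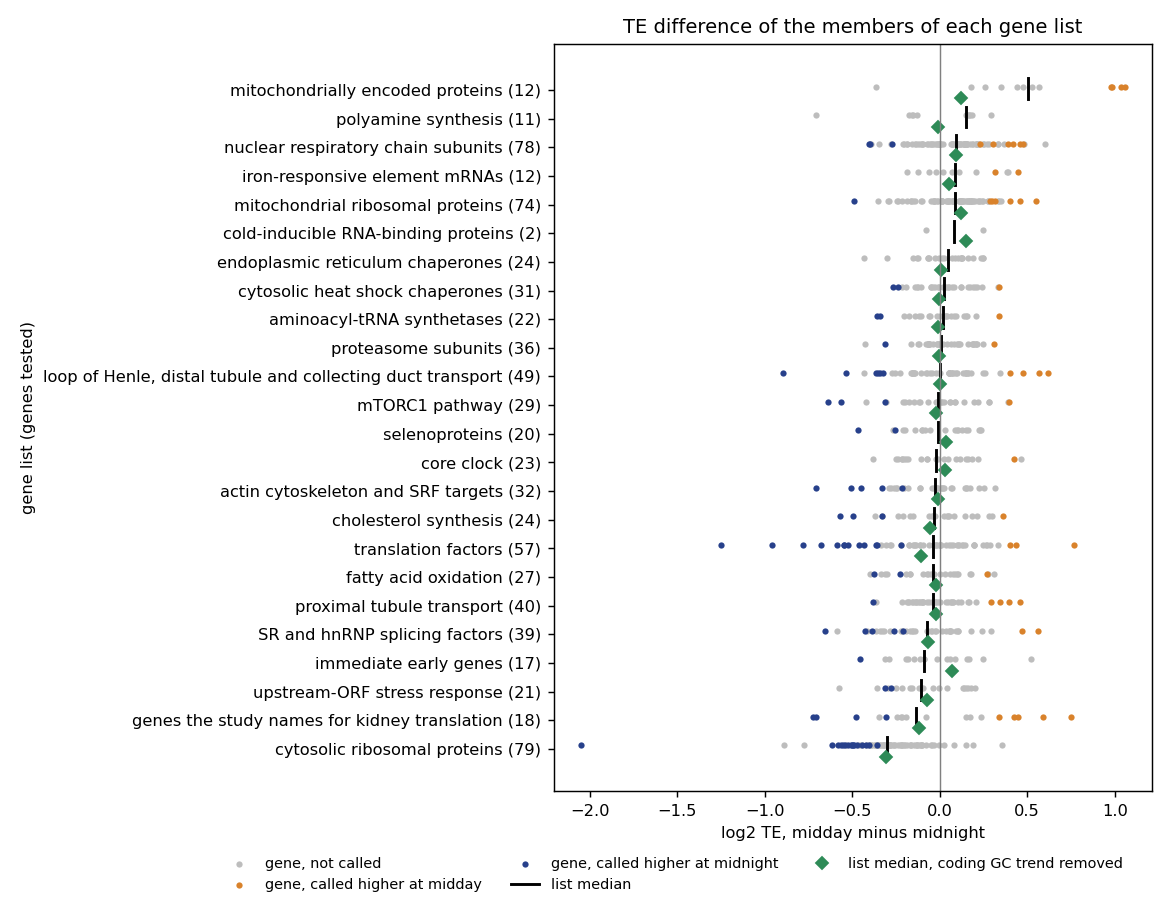
Log2 TE at midday minus midnight (x axis) of every member of the 24 gene lists (y axis, number of genes compared in brackets), with black bars for list medians and green diamonds for the medians once the GC trend was removed. The ribosomal protein genes lie furthest to the left by both medians (-0.30 and -0.31), and the median of the mitochondrially encoded genes moves from 0.50 to 0.12.

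The 12 mitochondrially encoded genes, which are translated inside mitochondria by a separate ribosome, leaned the other way before base composition was accounted for. Their median difference was 0.50, and 4 were called, all higher at midday (background 4.97%). In the fit without the GC trend, the median was 0.12 and limma called 0 (1 at an unadjusted p under 0.05). Their coding GC has a median of 36.5%, near the low end of all genes. In the flanking timepoints, before the GC trend was removed, their median difference was -0.15, opposite in sign to the windows, with 8 of 12 negative. mt-Nd3, a subunit of complex I, had TEs of 0.158, 0.181 and 0.364 at midday and 0.0845, 0.106 and 0.117 at midnight, a difference of 0.98 without overlap (adjusted p = 0.0105; 0.47 and 0.274 with the GC trend removed). Its highest value came from ZT04 replicate 2, and it stayed called without any 1 pool before the GC trend was removed.

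mt-Atp8 (1.06), mt-Nd2 (1.04) and mt-Atp6 (0.98) were the others called, and their pools overlapped. mt-Atp8 was called in 10, mt-Nd2 in 3 and mt-Atp6 in 4 of the 12 fits that left out a pool. mt-Nd6, the lone protein gene on the opposite strand of the mitochondrial genome, was at -0.37 and was not called. With the GC trend removed it was at -0.85 in the windows, not called (adjusted p = 0.0964), and at -1.49 in the flanking pools, where it was called (adjusted p = 0.00339).

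Nuclear genes for mitochondrial proteins gave smaller differences. Among 78 subunits of the respiratory chain and ATP synthase, 6 were higher at midday and 3 at midnight, 11.5% in all, near the 10.3% over all genes (median difference 0.094 in both fits). Ndufa12, Ndufa3 and Atp5k were called higher at midday in both fits. Atp5k, a small subunit of ATP synthase, had a median TE of 1.02 at midday and 0.792 at midnight with no overlap (difference 0.42, adjusted p = 0.0169; 0.45 and 0.0209). Uqcrb, Ndufs4 and Ndufv2 were called higher at midday and Uqcr11, Cyc1 and Uqcrc1 higher at midnight only before the GC trend was removed.

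Among 74 genes named as mitochondrial ribosomal proteins, 6 were higher at midday and 1 at midnight, 9.46% in all and again near the background, with a median difference of 0.085 (0.12 with the GC trend removed). Mrps36, whose product was later assigned to the oxoglutarate dehydrogenase complex, had a median TE of 1.27 at midday and 0.877 at midnight without overlap (difference 0.55, adjusted p = 0.00785; 0.49 and 0.0274). Mrps6 went the other way, with medians of 2.17 and 3.15 (difference -0.49, adjusted p = 0.0141; -0.50 and 0.0207). Mrpl40 was called higher at midday in both fits, Mrpl10 only with the GC trend removed, and Mrps18c, Mrpl1, Mrps31 and Mrpl35 only before the GC trend was removed.

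Of 32 genes of the actin cytoskeleton and targets of its transcription factor SRF, 5 were called and all were higher at midnight (background 5.30%), although the list median was -0.026. Once the GC trend was removed, 3 stayed called (background 1.86%). Actg1, cytoplasmic gamma actin, had TEs of 1.89, 2.00 and 2.18 at midday and 2.90, 3.30 and 3.61 at midnight. Its groups did not overlap, with a difference of -0.70 ± 0.0763 (adjusted p = 0.00150; -0.63 and 0.00397 with the GC trend removed). Actn4, an actin cross-linker that podocytes depend on, had medians of 1.2 and 1.67 without overlap (difference -0.50, adjusted p = 0.00364; -0.41 and 0.00527). Myh9, the heavy chain of nonmuscle myosin IIA, lay between 0.948 and 0.985 in all midday pools and between 1.24 and 1.48 at midnight (difference -0.45, adjusted p = 0.00428; -0.33 and 0.0137). The actinin gene Actn1 (-0.33) and the talin gene Tln1 (-0.21) were called only before the GC trend was removed.

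Genes of the distal nephron differed in both directions. Of 49 transport and hormone genes of the loop of Henle, distal tubule and collecting duct, 6 were higher at midnight and 4 at midday (background 5.30% and 4.97%), and with the GC trend removed 3 and 1 (1.86% and 1.07%). Hsd11b2, which inactivates glucocorticoid in principal cells and so leaves the mineralocorticoid receptor to aldosterone, had TEs of 1.98, 2.39 and 2.40 at midday and 3.49, 4.40 and 5.14 at midnight. Its lowest midnight pool was far above its highest midday pool, and the difference of -0.90 ± 0.118 (adjusted p = 0.00414) was -0.73 with the GC trend removed (adjusted p = 0.0109). Atp1b1, the beta subunit of the sodium pump, rose from a median of 1.98 at midday to 2.52 at midnight without overlap (difference -0.34, adjusted p = 0.0164; -0.37 and 0.0199). Cldn19, a tight junction protein of the thick ascending limb, went from 1.03 to 1.46 (difference -0.54; -0.37 with the GC trend removed).

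S100g, the calcium-binding calbindin-D9k, was the member higher at midday in both fits, with TEs of 2.00, 2.30 and 2.58 at midday and 1.28, 1.46 and 1.87 at midnight. Its pools did not overlap (difference 0.62 ± 0.103, adjusted p = 0.00719; 0.45 and 0.0170). Calb1 (0.40), Cldn16 (0.57) and Trpm7 (0.47), which serve calcium and magnesium transport, were higher at midday only before the GC trend was removed. The kinase Wnk4 (-0.36) and the cotransporter Slc12a7 (-0.36) were likewise called higher at midnight only before it.

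In the proximal tubule 4 of 40 transport genes were higher at midday and 1 at midnight, 12.5% in all beside 10.3% over all genes, and with the GC trend removed 0 and 1. Slc3a1 (0.30), Slc22a19 (0.46), Slc13a1 (0.34) and Slco4c1 (0.39) were the 4 higher at midday.

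Other lists known for translational control were small, and each had 0 to 4 calls, to be read beside the 10.3% over all genes. Of the 11 polyamine genes limma called 0 (2 at an unadjusted p under 0.05), the largest difference being that of the antizyme inhibitor Azin2 at -0.71 (adjusted p = 0.0519), and with the GC trend removed the antizyme gene Oaz1 was called higher at midday (0.33). Among 12 mRNAs with iron-responsive elements, Ftl1 and Tfrc were called higher at midday. Ftl1, the ferritin light chain, had TEs of 0.0956, 0.124 and 0.148 at midday and 0.0762, 0.0869 and 0.103 at midnight, overlapping groups with a difference of 0.45 (adjusted p = 0.0444; 0.58 and 0.0205 with the GC trend removed). Tfrc, the transferrin receptor, differed by 0.31, and by 0.043 with the GC trend removed, when it was not called and the iron sensor gene Ireb2 was called higher at midnight (-0.38). Of 21 genes of the upstream reading frame stress response, Sesn2 (-0.31) and Bace1 (-0.28) were higher at midnight, and with the GC trend removed limma called 0 (4 at an unadjusted p under 0.05).

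Of 20 selenoprotein genes, Gpx3 (-0.47) and Txnrd1 (-0.26) were higher at midnight, and Txnrd1 alone was called in both fits (Gpx3 at -0.43, adjusted p = 0.0953, with the GC trend removed). Of 29 mTORC1 pathway genes, Rraga, Ddit4 and Sesn2 were higher at midnight and Rps6kb1 at midday. Rraga, a Rag GTPase that reports amino acids to mTORC1, had a median TE of 2.86 at midday and 4.30 at midnight without overlap (difference -0.56, adjusted p = 0.00653; -0.61 and 0.00769), and it was the member called in both fits.

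Of 23 core clock genes 1 was called (4.35%, beside 10.3% over all genes). The same 1 was called with the GC trend removed (background 2.93%). Hlf, a PAR bZIP transcription factor of the clock output, had TEs of 1.28, 1.38 and 1.57 at midday and 0.814, 1.10 and 1.19 at midnight. All its midday pools were above its midnight pools, with a difference of 0.43 ± 0.0979 (adjusted p = 0.0212; 0.55 and 0.0191 with the GC trend removed). The other 22 lay between -0.38 (Per1) and 0.47 (Fbxl21), and neither of these passed the test.

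RNA-binding splicing factors had 5 of 39 genes higher at midnight (among them Hnrnpd, Hnrnpm, U2af1 and U2af2) and 2 higher at midday (Hnrnpdl and Ptbp3), beside 5.30% and 4.97% of all genes. In the fit without the GC trend, the numbers were 2 and 1, and Hnrnpm, U2af1, U2af2 and Ptbp3 were no longer called. Hnrnpdl, an hnRNP D-like RNA-binding protein, had TEs of 1.22, 1.32 and 1.47 at midday and 0.814, 0.872 and 1.01 at midnight. Its groups did not overlap, and the difference of 0.56 ± 0.0733 (adjusted p = 0.00406) was 0.58 with the GC trend removed (adjusted p = 0.00404) and called without any 1 pool.

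The share called was 11.1% for fatty acid oxidation, 16.7% for cholesterol synthesis and uptake, 13.6% for aminoacyl-tRNA synthetases, 9.68% for cytosolic chaperones, 5.88% for immediate early genes and 5.56% for the proteasome, each from 4 genes or fewer and beside 10.3% over all genes. Of 27 fatty acid oxidation genes, Acadl and Cpt1a were higher at midnight and Etfdh at midday. Acadl, the long-chain acyl-CoA dehydrogenase, had medians of 2.05 and 2.59 without overlap (difference -0.37, adjusted p = 0.0134; -0.43 and 0.0134), and with the GC trend removed Etfa was called as well (-0.34). Of 24 cholesterol synthesis and uptake genes, 3 were higher at midnight, among them Dhcr7 (-0.50), and 1 at midday, Sc5d (0.36). Both act late in cholesterol synthesis, and neither was called with the GC trend removed. Jun (-0.45) was the 1 immediate early gene of 17 called, and with the GC trend removed it was Ier3, higher at midday (0.43). Of 31 cytosolic chaperones, Cct7 (-0.27) and Hsp90ab1 (-0.24) were higher at midnight and Dnajb4 (0.34) at midday, and with the GC trend removed the 3 called were Cct7 (-0.28), Hsph1 (-0.34) and Hspd1 (-0.35), all higher at midnight.

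Of 22 aminoacyl-tRNA synthetase genes, Qars (-0.36) and Vars (-0.34) were higher at midnight and Dars (0.34) at midday. With the GC trend removed Qars stayed called (-0.36), and Vars (-0.18) and Dars (0.12) were not. Of 36 proteasome subunits, Psmb5 (-0.31) was higher at midnight and Psma3 (0.31) at midday, and with the GC trend removed, at -0.19 and 0.055, neither was called. Of the 24 chaperones of the endoplasmic reticulum limma called 0 (8 at an unadjusted p under 0.05), and with the GC trend removed Dnajb9 was called higher at midnight (-0.45). Of the cold-inducible proteins Cirbp (-0.079) and Rbm3 (0.25) it called 0, with 1 of them at an unadjusted p under 0.05.

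The study itself names 18 of the genes compared for their translation. Most were picked with these samples in view and some (Rps25, Rpl23a, Deaf1, Mxi1 and Ftl1) for their rhythm in liver, so their count is not independent evidence. Of these, 5 were called higher at midday (Tma7, Etnk2, Ftl1, Hlf and Dnajb4) and 4 higher at midnight (Actg1, Hoxd3, Deaf1 and Cgn), beside 4.97% and 5.30% of all genes. With the GC trend removed the numbers were 4 and 1 (background 1.07% and 1.86%). Tma7, a protein associated with the translation machinery, had TEs of 0.731, 0.905 and 0.967 at midday and 0.400, 0.511 and 0.704 at midnight. These groups did not overlap (difference 0.75 ± 0.139, adjusted p = 0.0110; 0.74 and 0.0205). Etnk2, an ethanolamine kinase, differed by 0.59, the homeobox gene Hoxd3 by -0.72, the transcription factor gene Deaf1 by -0.48 and the junction gene Cgn by -0.31. Once the GC trend was removed, Etnk2 stayed called (0.68), and Hoxd3 (-0.54), Deaf1 (-0.33), Cgn (-0.20) and Dnajb4 (0.11) were not. Ddb2 (0.17), Slc5a6 (-0.19), Nampt (0.24), Abcd4 (-0.35), Mxi1 (-0.25), Lypla2 (0.15), Tardbp (-0.22), Rps25 (-0.21) and Rpl23a (-0.079) were not called.

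**Figure D5:**
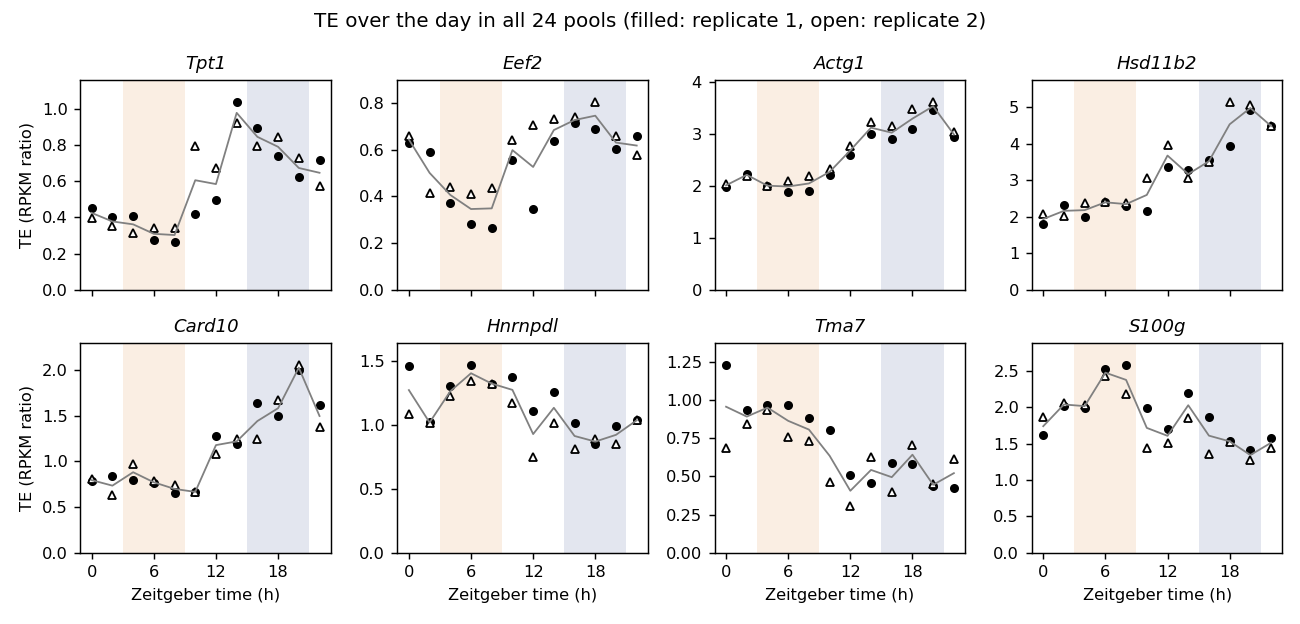
TE, the ratio of footprint RPKM to RNA RPKM (y axis, from 0), over Zeitgeber time in hours (x axis) in all 24 pools for 8 genes called in both fits, with filled circles for replicate 1, open triangles for replicate 2, grey lines through timepoint means, and the midday and midnight windows shaded. Tpt1 climbs from below 0.407 in the midday window to above 0.621 in the midnight window, and Hnrnpdl, Tma7 and S100g lie higher in the midday window.

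The same contrast was then made in pools that the comparison had not used, the 4 flanking midday (ZT02 and ZT10) against the 4 flanking midnight (ZT14 and ZT22). Here limma called 0 genes (0%; 1226 at an unadjusted p under 0.05), and with the GC trend removed 16 (0.136%), 7 of which (among them Card10, Lman2l, Ahcyl1, Tmed10, Fkbp5 and Dynll2) had also been called between the windows in that fit. Of the 1218 genes called, 896 kept their sign in the flanking pools (73.6%), against 55.9% of the other 10645 genes. In the fit without the GC trend, these shares were 89.0% of the 345 called genes and 64.9% of the others. Genes called higher at midnight had a median difference of -0.42 in the windows and of -0.15 in the flanking pools, and those called higher at midday 0.40 and 0.061. With the GC trend removed, genes called higher at midnight had a median difference of -0.45 in the windows and of -0.27 in the flanking pools, and those higher at midday 0.43 and 0.19.

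Tpt1 differed by -0.77 in the flanking pools, Card10 by -0.95, Actg1 by -0.45, Hsd11b2 by -0.68 and Tma7 by 0.49. Hnrnpdl was at 0.073 and S100g at 0.089 there. The ribosomal protein genes had a flanking median of -0.022, with 45 of 79 negative. No gene's contrast differed between windows and flanking pools at an FDR under 0.05 (limma interaction term, 0 of 11863; 1469 at an unadjusted p under 0.05), so a difference between the contrasts was not shown for any gene named here.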

How the data were processed

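The authors isolated nuclease-protected fragments and total RNA from the same kidney lysates, trimmed and size-selected the reads, mapped them with Bowtie2 2.2.1 and TopHat2 2.0.11 (GRCm38.p2, Cufflinks 2.2.1 for transcripts, per the submitters' processing notes) and deposited their RPKM values, one for every gene in every library, counted on coding sequences after upper quantile normalisation with edgeR. From these RPKM values log2 TE was computed as log2(RPF RPKM + 0.1) - log2(RNA RPKM + 0.1) within a pool, and understates changes of low genes. Genes were kept if their median reached 0.5 RPKM in RPF-seq and in RNA-seq, and these 11863 were fitted with limma 3.58.1 in R 4.3.3 (lmFit, eBayes with a variance trend, two-sided moderated test, Benjamini-Hochberg over all of them, FDR under 0.05), on the 6 midday and 6 midnight pools without covariates. Single values per pool were compared by exact permutation.

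Read counts were not used here, so depth is known only relative to the other libraries, from the ratios of low values between libraries, and no counting interval was computed. Coding GC came from 1 GENCODE vM21 transcript per gene (11784 genes). The GC trend was removed per pool with a lowess curve (span 0.3) of log2 TE, as deviation from the gene's mean over 24 pools. This correction and the test of the GC slope were chosen after seeing the data. The fits were tested on simulated data. Nothing in the labels ties pools to library batches, and p-values measure the spread between pools, each of 2 mice.

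The members, lists and naming rule were chosen with earlier results of these data known. Genes named are the 15 with the largest differences in each direction among those called with at least 2 RPKM in both assays, every called list member, the 2 largest differences of each list, and the genes the study names; Per1, mt-Nd6, genes called only with the GC trend removed, the marker genes and the flanking calls were added after their values were seen. Symbols were matched for 12373 of 12423 genes. Alternatives were pseudocounts of 1 and 0.01, no minimum or one of 2 RPKM, median centring, quantile normalisation, a replicate block, timepoint means, all 24 pools, unpaired assays, depth covariates, another variance model, stricter thresholds and pools, replicates or timepoints left out. Replicate numbers did not pair the pools: the differences between replicates 1 and 2 correlated above 0.1 in 2 of 15 pairs of timepoints. Liver was not analysed here. Some genes that the rule names are not reported here.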

Additional observations from a re-analysis of the deposited data

Results flagged for a closer look

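A value was singled out where a pool lay far from the other 5 of its group (Dixon's criterion at 95%, on the gap to the nearest other pool relative to the range of the group). This was tested in 114 groups of 6 pools, over 54 genes and 3 values per pool, and 7 met it. Chance alone gives this in about 1 in 20 groups.

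Among midday pools, ZT04 replicate 2 had a TE of 0.364 for mt-Nd3, beside 0.158 to 0.199 in the others, and an interquartile range of log2 TE of 1.25 beside 1.13 to 1.17. Hsd11b2 had a TE of 1.98 in ZT04 replicate 1 beside 2.31 to 2.40, and Pabpc4 of 0.368 in ZT08 replicate 1 beside 0.409 to 0.433. Among midnight pools, Eef1a1 had a TE of 0.554 in ZT18 replicate 2 beside 0.366 to 0.417, Cct7 of 1.81 in ZT16 replicate 2 beside 1.42 to 1.54, and Rraga of 3.55 in ZT16 replicate 1 beside 4.26 to 4.62.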

How the results depend on the processing

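The counts of called genes rested on the 12 pools being 12 independent values. With timepoint means limma called 0 genes in either direction (2436 at an unadjusted p under 0.05), with depth covariates 2 (1 in each direction), with unpaired assays 569 (252 higher at midday, 317 at midnight) and with all 24 pools 1940 (970 and 970). At an FDR under 0.01 it called 116 (37 and 79), and 193 (73 and 120) were at least 1.5-fold. Leaving out 1 pool, both pools of a timepoint or all pools of 1 replicate number gave 0 to 1607 (midday 0 to 829, midnight 0 to 778), the 0 being without replicate 1 and without replicate 2, where 3 pools stood against 3 (1683 and 2087 at an unadjusted p under 0.05). With the GC trend removed, chosen after seeing the data, 345 were called (126 and 219), and 137 to 359 without 1 pool (34 to 117 and 101 to 242). Pseudocount, RPKM minimum, centring, quantile normalisation and the variance model left the count between 1133 and 1413. With the replicate number as a block (replicate block) it was 1128, and 322 (115 and 207) with the GC trend removed as well. The numbers do not pair the pools: 5 of 12 pools matched best a pool of their own number. In the flanking pools 15 genes were called with a pseudocount of 1, 14 with a minimum of 2 RPKM, 3 without the variance trend and 16 with the GC trend removed. The difference in median TE, 0.00499, ran from -0.00396 without both ZT06 pools to 0.0171 without both ZT04 pools, and the log2 TE difference of Tfrc turned to -0.00152 with the GC trend removed and ZT18 replicate 2 left out. The cause of these changes was not tested. Of the 160 genes named by rule, 132 were no longer called with timepoint means, 131 with depth covariates and 83 with the GC trend removed. Depth is known only relative to the other libraries, so no counting error stands beside these values.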

Other observations

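Some marker genes of other kidney cell types, which were among the genes compared above, also differed in TE. Dcn, the matrix proteoglycan decorin of fibroblasts, had TEs of 2.16, 2.72 and 2.94 (lowest, median and highest) at midday and 1.64, 1.77 and 2.03 at midnight, without overlap, and was called in both fits (0.55, adjusted p = 0.00653 in limma; 0.44 and 0.0136 with the GC trend removed). Hba-a1, an alpha globin gene with a near-identical copy in Hba-a2, was called higher at midday in both fits (0.59 and 0.73) with overlapping pools, while the summed RNA of 4 red blood cell markers ran from 54.4 to 115 RPKM at midday and from 56.7 to 373 RPKM at midnight. Emcn of endothelium (0.55), Ptprc of leukocytes (0.49), Nphs1 of podocytes (-0.36) and Col1a1 of fibroblasts (-0.46) were called only before the GC trend was removed.

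The 3 liver markers listed were low in kidney RNA, summing to 21.1 to 39.6 RPKM at midday and 22.7 to 41.9 RPKM at midnight, and their TE varied widely between pools. Serpina3k, a serine protease inhibitor secreted by liver, ran from 1.62 to 9.40 at midday and from 2.35 to 53.1 at midnight, and Alb from 2.32 to 3.27 and from 2.14 to 11.3. Neither was called, and where the footprints of these genes came from was not tested.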
